A study of Mus musculus with 2 samples.

Results

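The proteasome genes were described in microglia and macrophages of the mouse optic nerve, as measured by single-cell RNA sequencing. A gene was taken where its symbol began with Psm, a letter from a to g and a digit, and where it had at least 1 unique molecular identifier (UMI, which stands for 1 captured transcript). This gave 49 of the 14428 genes with a UMI. Psmb11, the thymus-specific catalytic subunit, matched by name and had 0 UMIs. Psmc3ip matched by name as well, but encodes a recombination factor and no part of the proteasome; it had 11 injured and 0 uninjured UMIs and was left out of every sum, so that 48 genes were used. They fell into the 20S alpha ring (8 genes), the standard 20S beta ring (7), the immunoproteasome beta subunits (3), the ATPases (6) and other subunits (11) of the 19S cap, the PA28 activator (3), other activators and an inhibitor (3), and assembly chaperones (7). The mice were Wildtype, of the strain 129S1/SvlmJ and of both sexes. The injured group had the optic nerve crushed at 8 weeks of age, and its cells were taken 2 weeks later, at 10 weeks. The uninjured group, also 10 weeks old, had no treatment. Each group was 1 library, and the sources used here do not give how many animals were pooled in it. With no replicate libraries, no group difference was tested, and all intervals are exact 95% intervals that cover only the counting of UMIs or, for shares of cells, of cells within these libraries.

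The proteasome is the protease complex that breaks down proteins tagged with ubiquitin. Its 20S core is a barrel of alpha rings outside and beta rings inside, with cutting sites on the beta subunits Psmb5 (chymotrypsin-like), Psmb6 (caspase-like) and Psmb7 (trypsin-like). The 19S cap binds ubiquitinated proteins, unfolds them with its ring of ATPases and feeds them into the core. In immune cells and under interferon, Psmb8, Psmb9 and Psmb10 can take the places of Psmb5, Psmb6 and Psmb7, and the PA28 activator (Psme1 and Psme2) can sit on the core in place of the cap; this form is known for making peptides for MHC class I. Microglia are the resident macrophages of the nervous system, and both they and infiltrating macrophages take up debris after a crush.

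The injured library held 727 cells and 3697992 UMIs, with 500 to 53972 UMIs per cell (median 1123). The uninjured library held 51 cells and 87499 UMIs, with 458 to 11100 per cell (median 888), so the uninjured counts set the precision of each ratio. No cell barcode was shared. Levels are UMI counts divided by the total of the library or class and multiplied by a constant (CPM), and a count of 0 allows a level of at most 0.811 CPM among injured cells and 34.3 CPM among uninjured cells. All 16 microglia and macrophage markers were seen in both libraries, with 5.87% of injured UMIs and 3.42% of uninjured UMIs. At least 1 UMI of these markers was seen in all 727 injured cells and in 48 of the 51 uninjured cells. The 8 oligodendrocyte markers were also seen in both libraries, with 0.118% and 0.862% of UMIs. One uninjured cell stood apart: 10214 of its 11100 UMIs were from haemoglobin genes and 0 from proteasome genes. Summed levels and counts of genes against the uninjured library are therefore given with and without it. Ratios of single genes include it unless stated, and leaving it out divides the ratio of every proteasome gene by 1.15. Cells of at least 5000 UMIs are called deep below (144 injured and 4 uninjured cells). The shallower cells were divided by Malat1, a nuclear non-coding RNA, at 1% of a cell's UMIs: 91 injured and 17 uninjured cells were Malat1-rich, and 492 and 30 were Malat1-poor.

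Short motifs that known regulators of proteasome genes bind were looked for in their promoters. RefSeq promoters (build GRCm38.p6) were found for 40 of the 48 genes, and the 250 bases before each start were searched on both strands. The antioxidant response element, written TGACNNNGC, is bound by NRF1 (Nfe2l1), which drives proteasome genes when the proteasome is short, and by NRF2 (Nfe2l2). These letters stood in the promoters of Psmb5, Psmb6, Psmc6, Psmd12 and Psmd9, and in 10.2% of all 32817 promoters of the same length. The sequences below are shown because Psmb5 and Psmb6 are the standard partners in the catalytic pairs described further on, and Psmb8 the immunosubunit with the highest level. Capitals mark the motif, and each line reads 5′ to 3′ on the gene's own strand. For Psmb3 the match is on the opposite strand, so its capitals are the reverse complement of the motif as written below. Starts are those of RefSeq. For Psmb8 and Psmd9 the sequence shown lies inside the gene as placed by GENCODE vM21, which begins further upstream.
Psmb5, antioxidant response element, chr14:54618024-54618052, minus strand, 47 bases before the start: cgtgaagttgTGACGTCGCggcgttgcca
Psmb6, antioxidant response element, chr11:70525338-70525356, plus strand, 9 bases before the start: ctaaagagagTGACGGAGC
Psmd9, antioxidant response element, chr5:123228149-123228177, plus strand, 31 bases before the start: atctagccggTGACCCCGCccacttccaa
Psmb8, gamma-activated site, chr17:34198088-34198116, plus strand, 97 bases before the start: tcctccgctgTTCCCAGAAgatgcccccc
Psmb3, interferon-stimulated response element, chr11:97703261-97703290, plus strand, 163 bases before the start: cacagtgactTTTCACTTTCcgctttccat
The gamma-activated site, written TTCNNNGAA and known from interferon gamma responses, was found for Psmb8 and Psmg1 (7.01% of all promoters). The interferon-stimulated response element, written as GAAA, any 2 bases and GAAA, was found for Psmb3, Psmd4 and Psmd9 (2.97% of all promoters), and for none of Psmb8, Psmb9 and Psmb10. The CCAAT box, written CCAAT, was in 13 of the 40 proteasome promoters (32.5%) and in 33.8% of all promoters; 5 of the 13 were among the 7 alpha-ring promoters matched, 1 among 4 of the beta ring and 4 among 14 of the cap. A match describes these letters in this window and shows no binding.

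Proteasome genes together took a larger share of the UMIs in the injured library. They gave 16286 of its UMIs, or 4404 CPM, against 223 UMIs or 2549 CPM in the uninjured library. The ratio was 1.73 (1.51 to 1.98), and 1.51 (1.32 to 1.73) without the haemoglobin-rich cell. The difference was larger for the 20S core than for the 19S cap. The standard core (alpha and beta rings) was at 2038 CPM in injured against 949 CPM in uninjured cells, a ratio of 2.15 (1.73 to 2.70), or 1.88 (1.51 to 2.36) without that cell. The 19S cap was at 1341 against 949 CPM, a ratio of 1.41 (1.14 to 1.78), or 1.23 (0.994 to 1.55) without it. The 20S genes made up 60.3% (59.4 to 61.2) of the 20S and 19S UMIs in injured cells and 50% (42.2 to 57.8; 83 of 166 UMIs) in uninjured cells. The haemoglobin-rich cell does not enter this share, since it has 0 UMIs of either. Without Psmb6 the shares were 56.2% (55.3 to 57.1) and 48.8% (40.8 to 56.7), with intervals that overlapped.

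**Figure D1:**
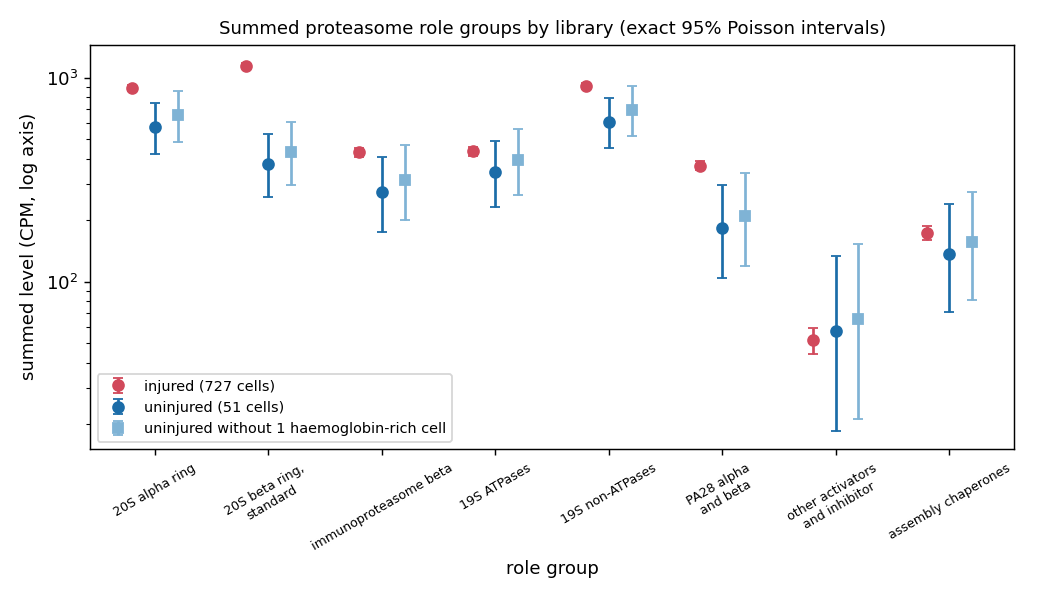
Summed level of each proteasome role group (CPM, log axis) in the injured library, the uninjured library and the uninjured library without its haemoglobin-rich cell, with exact 95% Poisson intervals. The standard beta ring is the group with the widest gap (1145 against 377 CPM), and the intervals of the 19S ATPases, the activators other than PA28 and the assembly chaperones overlap between the libraries; without the haemoglobin-rich cell those of the alpha ring, the immunosubunits and the other cap subunits overlap too.

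Of the 48 genes, 45 were compared, namely those found in 5% or more of the cells in either library. Of these, 33 met this in both libraries and 12 in the injured one alone, a condition that favours higher values for those 12. The 12 were Psma5, Psmc4, Psmd1, Psmd3, Psmd5, Psmd7, Psmd9, Psmd10, Psme4, Psmf1, Psmg3 and Psmg4. With a pseudocount of 10 CPM, 24 of the 45 were at least 1.5-fold higher in injured cells, 1 was at least 1.5-fold lower (Psmg1) and 20 lay between. The 24 include 2 genes with 0 uninjured UMIs (Psmd5 and Psmd9), for which a difference was not detectable at this depth. Of all 6680 genes compared, 30.3% were higher and 25.3% lower by this rule. Among the 33 genes seen in 5% or more of the cells of both libraries, an alternative chosen after seeing the data that favours genes with higher uninjured values, 15 were higher and 1 lower, against 14.6% and 38.2% of the 3444 genes that met it. Their median log2 ratio was 0.43, against -0.32 for all of these genes. Without the haemoglobin-rich cell 15 of the 33 were higher and 4 lower, against 10.9% and 45.6%. The interval lay above 1 for 8 of the 33 (9.41% of all these genes), and for 4 without that cell (6.59%). Over all 45 genes, intervals of the ratio lay wholly above 1 for 11 (Psma5, Psmb1, Psmb2, Psmb3, Psmb5, Psmb6, Psmb8, Psmc4, Psmd1, Psmd8 and Psme1) and wholly below 1 for 0, against 7.66% and 12.5% of all genes. Without the haemoglobin-rich cell, 24 of the 45 were higher (26.6% of all genes), 5 lower (30.7%), and the interval lay above 1 for 5 genes (5.44%): Psma5, Psmb1, Psmb3, Psmb6 and Psme1. The interval of Psmg1 then lay below 1 (14.8% of all genes).

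**Figure D2:**
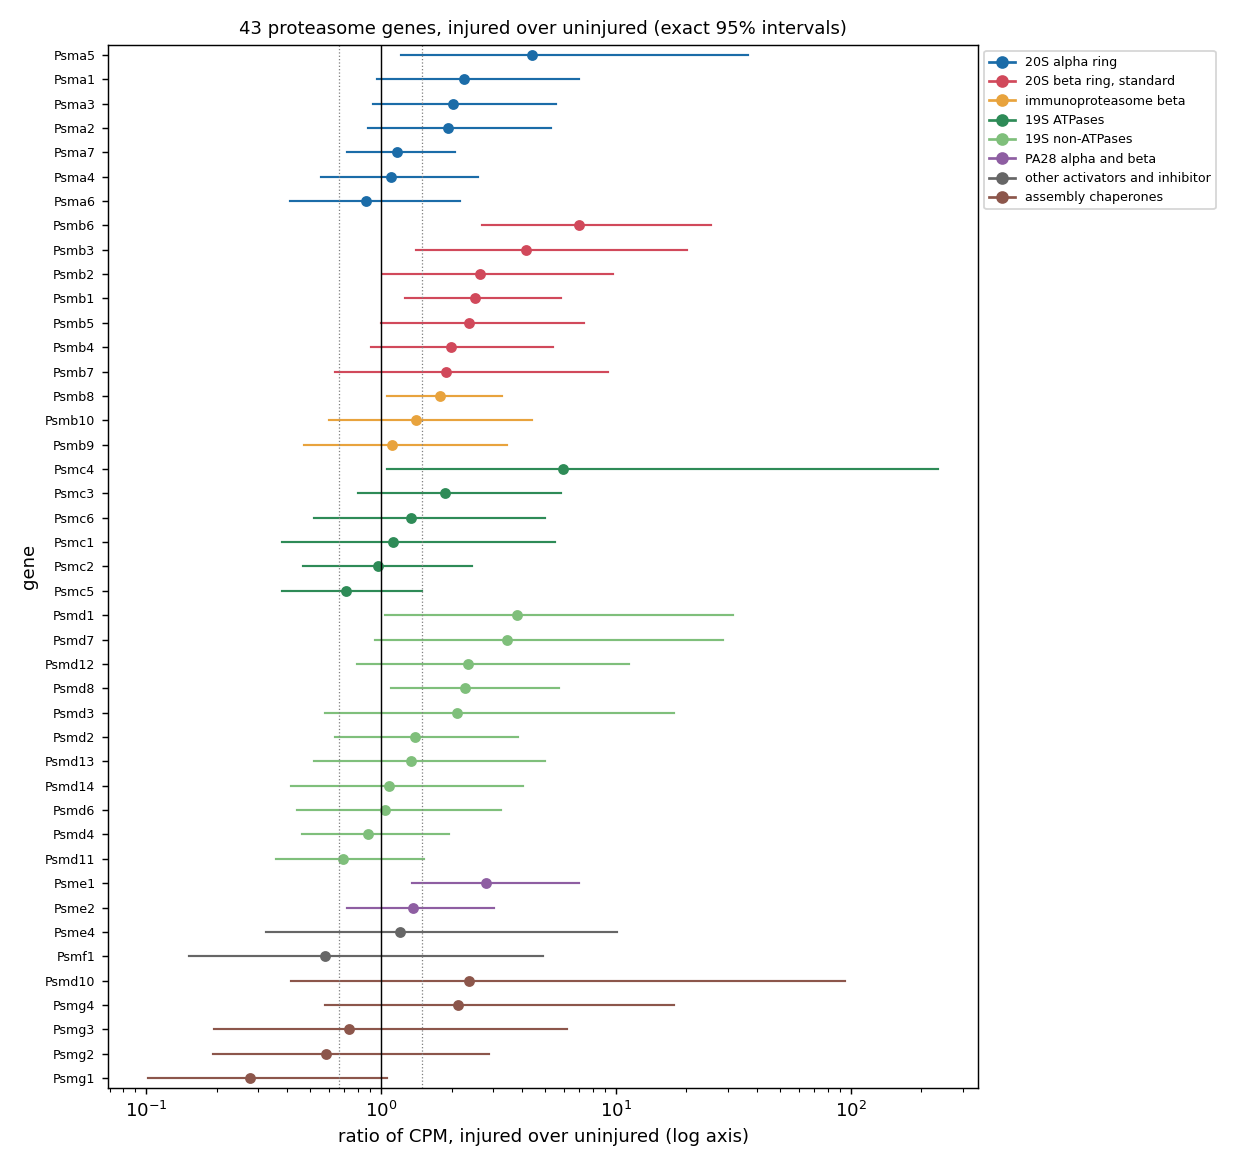
Ratio of CPM in injured over uninjured cells (log axis) for the 43 compared proteasome genes with a UMI in both libraries, coloured by role group, with exact 95% intervals; the solid line marks equal levels and the dotted lines the 1.5-fold rule. All 7 standard beta-ring genes lie above 1.5, with Psmb6 highest at 6.95, and Psmg1 lies lowest at 0.278; Psmd5 and Psmd9, with 0 uninjured UMIs, are not drawn.

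The standard beta ring, which holds the cutting sites, differed most between the libraries. Its 7 genes summed to 1145 CPM in injured against 377 CPM in uninjured cells (4236 and 33 UMIs), a ratio of 3.04 (2.16 to 4.42), or 2.65 (1.89 to 3.86) without the haemoglobin-rich cell. All 7 were at least 1.5-fold higher. Psmb6, the caspase-like subunit, had 1175 injured UMIs (318 CPM, the highest level of any proteasome gene there) and 4 uninjured UMIs (45.7 CPM), a ratio of 6.95 (2.71 to 25.6). Psmb3, a structural subunit, was at 142 against 34.3 CPM, a ratio of 4.13 (1.41 to 20.1). Psmb1, also structural, was at 229 against 91.4 CPM, a ratio of 2.51 (1.27 to 5.83). Psmb2 was at 121 against 45.7 CPM, a ratio of 2.64 (1.03 to 9.75). The intervals of these 4 genes and of Psmb5 lay above 1; those of Psmb4 and Psmb7 reached below it. Psmb7, the trypsin-like subunit, had the lowest injured level of the ring, at 64.9 against 34.3 CPM (240 and 3 UMIs).

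Since Psmb6 is a large part of the ring, the sums were also taken without it, an alternative chosen after its value was seen. The other 6 genes gave a ratio of 2.50 (1.74 to 3.74). The beta ring made up 56.2% of alpha- and beta-ring UMIs in injured cells (55.1 to 57.3) and 39.8% in uninjured cells (29.2 to 51.1; 33 of 83 UMIs). Without Psmb6 these shares were 48.1% (46.9 to 49.4) and 36.7% (26.1 to 48.3; 29 of 79 UMIs), and their intervals overlapped.

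The alpha ring, which forms the gate of the core, was at 893 CPM in injured against 571 CPM in uninjured cells (3301 and 50 UMIs). The ratio was 1.56 (1.18 to 2.11), or 1.36 (1.03 to 1.84) without the haemoglobin-rich cell. Psma1, Psma2, Psma3 and Psma5 were at least 1.5-fold higher, and Psma4, Psma6 and Psma7 lay between the limits. Psma7 had the highest level of the ring, at 214 CPM in injured against 183 CPM in uninjured cells (793 and 16 UMIs). Psma5 had 373 injured and 2 uninjured UMIs (101 and 22.9 CPM), a ratio of 4.41 (1.21 to 36.6). It passed the minimum of 5% of cells in the injured library alone, which favours a high ratio. Psma1 was at 129 against 57.1 CPM, a ratio of 2.26 (0.961 to 6.98). Psma3 was at 139 against 68.6 CPM, with an interval that reached below 1. Psma8, the alpha subunit known from testis, had 22 injured and 0 uninjured UMIs and was seen in too few cells to be compared. Psma2 overlaps AW209491 on its own strand, so some of its UMIs could belong to that gene.

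The 3 immunosubunits were together at 431 CPM in injured against 274 CPM in uninjured cells (1593 and 24 UMIs). The ratio was 1.57 (1.05 to 2.46), or 1.37 (0.918 to 2.15) without the haemoglobin-rich cell. Psmb8, which replaces Psmb5, had the second highest level of all proteasome genes in injured cells, at 286 CPM against 160 CPM in uninjured cells (1059 and 14 UMIs), a ratio of 1.79 (1.06 to 3.29). Psmb9, which replaces Psmb6, was at 63.5 against 57.1 CPM (235 and 5 UMIs), a ratio of 1.11 (0.470 to 3.46). Psmb10, which replaces Psmb7, was at 80.9 against 57.1 CPM (299 and 5 UMIs), a ratio of 1.41 (0.600 to 4.39). Psmb8 and Psmb9 lie in the MHC region of chromosome 17, at 34197721 to 34201454 on the plus strand and 34181987 to 34187764 on the minus strand (GENCODE vM21, mm10). Psmb9 overlaps the start of the peptide transporter gene Tap1 by 212 bases on the other strand, and Tap1 ends 495 bases before Psmb8. Tap1 had 117 injured UMIs (31.6 CPM) and 0 uninjured UMIs, and its injured level is less than an uninjured count of 0 can exclude (34.3 CPM).

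The 3 places for a cutting subunit were shared differently between standard and immune forms. These shares count each transcript once whatever its length, although capture can differ between genes. In injured cells Psmb8 made up 68.0% (65.6 to 70.3) of Psmb8 and Psmb5 UMIs, Psmb10 55.5% (51.2 to 59.7) of Psmb10 and Psmb7 UMIs, and Psmb9 16.7% (14.8 to 18.7) of Psmb9 and Psmb6 UMIs. The 3 intervals did not overlap, so the Psmb6 place was mostly standard at the RNA level where the Psmb5 place was mostly immune. In uninjured cells the same shares were 73.7% (48.8 to 90.9) for Psmb8, 62.5% (24.5 to 91.5) for Psmb10 and 55.6% (21.2 to 86.3) for Psmb9, from 19, 8 and 9 UMIs. Their intervals overlapped each other. The share of Psmb9 was lower in injured cells, with an odds ratio of 0.160 (0.0316 to 0.751) that rests on 5 and 4 uninjured UMIs. For Psmb8 and Psmb10 the odds ratios were 0.758 (0.212 to 2.24) and 0.748 (0.115 to 3.89). Over all 6 catalytic genes the immunosubunits gave 45.4% (43.8 to 47.1) of injured and 66.7% (49.0 to 81.4; 24 of 36 UMIs) of uninjured UMIs, an odds ratio of 0.416 (0.189 to 0.869). Of the 24 uninjured UMIs of immunosubunits, 9 came from 1 cell. In deep uninjured cells 15 of 18 catalytic UMIs were of immunosubunits and in Malat1-rich ones 0 of 3. Among Malat1-poor cells the odds ratio was 0.616 (0.178 to 1.96).

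**Figure D3:**
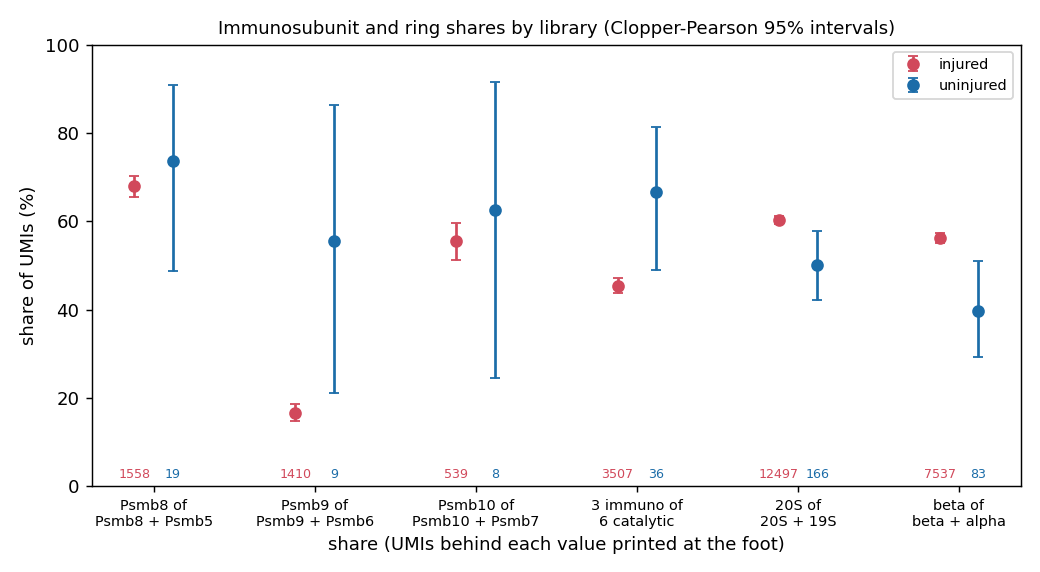
Shares of UMIs (%) in the injured and uninjured libraries with exact Clopper-Pearson 95% intervals, with the UMIs behind each share printed at the foot. Psmb9 stands at 16.7% of its pair in injured cells, far below Psmb8 (68.0%) and Psmb10 (55.5%), and the uninjured intervals are wide because they rest on 8 to 19 UMIs for each pair.

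The same order was seen in single injured cells. Among the 144 deep injured cells, those with at least 5 UMIs of a pair gave a median Psmb8 share of 71.4% (quartiles 55.2 and 83.9; 104 cells), a median Psmb10 share of 60.0% (46.4 and 73.2; 35 cells) and a median Psmb9 share of 16.7% (7.69 and 22.2; 95 cells). The Psmb8 share was over 50% in 81 of 104 cells and the Psmb9 share in 3 of 95. Psmb9 was at 0 in 17 of those 95 cells. In the 3 deep uninjured cells with proteasome UMIs, which held 34, 24 and 20 of them, Psmb5 had 0 UMIs against 9 for Psmb8, and Psmb6 had 1 against 3 for Psmb9.

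The ATPases of the cap, which unfold the substrate, were at 435 CPM in injured against 343 CPM in uninjured cells, a ratio of 1.27 (0.885 to 1.89). The ratio was 1.11 (0.773 to 1.65) without the haemoglobin-rich cell. Psmc3 and Psmc4 were at least 1.5-fold higher and the other 4 lay between the limits. Psmc3 had the highest injured level of the ATPases, at 108 against 57.1 CPM. Psmc4 had 252 injured UMIs (68.1 CPM) and 1 uninjured UMI, a ratio of 5.96 (1.06 to 236). It passed the minimum of 5% of cells in the injured library alone, which favours a high ratio. Psmc5 lay on the other side, at 81.1 against 114 CPM, a ratio of 0.710 (0.381 to 1.5). Psmc1 had the lowest injured level of the ATPases, at 38.7 against 34.3 CPM.

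The 11 other cap subunits were at 906 CPM in injured against 606 CPM in uninjured cells, a ratio of 1.5 (1.14 to 2.00), or 1.31 (0.997 to 1.75) without the haemoglobin-rich cell. Psmd1, Psmd3, Psmd7, Psmd8 and Psmd12 were at least 1.5-fold higher. Psmd8 had the highest injured level of the cap, at 183 against 80 CPM (677 and 7 UMIs), a ratio of 2.29 (1.10 to 5.71). Psmd1, a large scaffold subunit, had 321 injured and 2 uninjured UMIs, a ratio of 3.80 (1.04 to 31.5); it overlaps Gm21972 on the same strand. Psmd7 had 292 and 2 UMIs, a ratio of 3.45 (0.948 to 28.7). Psmd1, Psmd3 and Psmd7 passed the minimum of 5% of cells in the injured library alone, which favours high ratios. Psmd4, a ubiquitin receptor, was at 91.1 against 103 CPM, and Psmd14, the deubiquitinase of the cap, at 49.5 against 45.7 CPM. Psmd3 had the lowest injured level of these 11 subunits, at 48.4 against 22.9 CPM.

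Among the activators, the PA28 genes were at 370 CPM in injured against 183 CPM in uninjured cells, a ratio of 2.02 (1.24 to 3.55), or 1.77 (1.08 to 3.10) without the haemoglobin-rich cell. Psme1 was at 224 against 80 CPM (827 and 7 UMIs), a ratio of 2.80 (1.35 to 6.97). Psme2 was at 141 against 103 CPM (522 and 9 UMIs), a ratio of 1.37 (0.717 to 3.02). These 2 genes lie 5911 bases apart on chromosome 14. Psme2b, which resembles Psme2 and overlaps 2 other genes on its strand, had 19 injured and 0 uninjured UMIs, and its count is uncertain. Psme3, the nuclear PA28 gamma, was at 10.5 CPM in injured cells (39 UMIs) and had 1 uninjured UMI. Psme4, which encodes the activator PA200, was at 27.6 against 22.9 CPM (102 and 2 UMIs). Psmf1, an inhibitor of the core, was at 13.3 against 22.9 CPM (49 and 2 UMIs), a ratio of 0.580 (0.152 to 4.92).

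The assembly chaperones were scarce, at 173 CPM in injured against 137 CPM in uninjured cells (638 and 12 UMIs), a ratio of 1.26 (0.715 to 2.45), or 1.10 (0.624 to 2.14) without the haemoglobin-rich cell. With each cell thinned to 500 UMIs the direction turned, at 0.663 (0.287 to 1.88). Psmg1 and Psmg2 form a pair that starts the alpha ring: Psmg1 was at 12.7 against 45.7 CPM (47 and 4 UMIs), a ratio of 0.278 (0.102 to 1.06), and Psmg2 at 20 against 34.3 CPM (74 and 3 UMIs). Psmg3 and Psmg4 form another pair: Psmg3 was at 16.8 against 22.9 CPM (62 and 2 UMIs), and Psmg4 at 48.7 against 22.9 CPM (180 and 2 UMIs). Psmg4 had the highest injured level of the group. The chaperones of the ATPase ring were Psmd5, Psmd9 and Psmd10, with 62, 113 and 100 injured UMIs and 0, 0 and 1 uninjured UMIs. For Psmd5 and Psmd9 the injured levels (16.8 and 30.6 CPM) are less than an uninjured count of 0 can exclude (34.3 CPM), and a difference was not detectable at this depth.

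In each depth and Malat1 class the summed level was higher in injured cells, with smaller counts and, for Malat1-rich cells, an interval that reached 1. Over all proteasome genes the ratio of injured to uninjured cells was 2.00 (1.60 to 2.54) among deep cells, 1.36 (0.996 to 1.89) among Malat1-rich cells and 1.38 (1.13 to 1.70) among Malat1-poor cells. Among deep cells without the haemoglobin-rich cell it was 1.39 (1.11 to 1.75). The standard beta ring gave 3.16 (1.66 to 6.92) there, and 2.14 (1.33 to 3.70) among Malat1-poor cells. In Malat1-rich cells the ring was at 312 against 273 CPM, a ratio of 1.14 (0.519 to 2.97; 7 uninjured UMIs). Among deep cells Psmb1 was at 225 CPM in injured cells and had 0 UMIs in uninjured cells, at least 2.69-fold higher against 3 counts over the class, or 1.86-fold without the haemoglobin-rich cell. The immunosubunits were at 424 CPM in deep injured against 417 CPM in deep uninjured cells, a ratio of 1.02 (0.613 to 1.82), or 0.702 (0.424 to 1.26; 15 uninjured UMIs) without the haemoglobin-rich cell. In Malat1-poor cells they were at 554 against 347 CPM, a ratio of 1.60 (0.831 to 3.52), and in Malat1-rich cells they had 26 injured and 0 uninjured UMIs. The difference between classes was not tested. In deep cells 29 of 48 proteasome genes were at least 1.5-fold higher and 2 lower, against 53.4% and 18.6% of all genes there. Without the haemoglobin-rich cell 25 were higher and 8 lower, against 49.9% and 25.4%. The median mitochondrial share of a cell's UMIs was 2.36% for deep injured cells, 10.7% for Malat1-rich and 0.503% for Malat1-poor ones; among uninjured cells it was 3.82%, 3.11% and 8.11%. The part of these shares, and of the marker shares given above, in the ratios was not tested.

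Shares of cells were compared at an equal depth of 500 UMIs drawn from each cell; 2 uninjured cells had fewer and were dropped. A proteasome UMI was then seen in 88.3% (85.7 to 90.6) of 727 injured and 69.4% (54.6 to 81.7) of 49 uninjured cells; with all UMIs the shares were 95.9% and 88.2%. A standard beta-ring UMI was seen in 44.4% (40.8 to 48.1) of injured and 16.3% (7.32 to 29.7) of uninjured cells. For the 19S ATPases the shares were 20.6% (17.7 to 23.8) and 12.2% (4.63 to 24.8), and for the other cap subunits 34.0% (30.5 to 37.5) and 32.7% (19.9 to 47.5). These intervals cover the sampling of cells within 1 library each and do not compare conditions. The haemoglobin-rich cell had 0 proteasome UMIs among its 11100, but 10214 of these were from haemoglobin genes. Each of the 4 deep uninjured cells, this one included, held UMIs of oligodendrocyte markers (59 UMIs together). Free RNA was not measured in either library, and its part in these shares was not tested.

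Genes that work with the proteasome but lie outside the name pattern were taken from 8 lists, whose counts are to be read against the 30.3% of all genes called higher and 25.3% called lower (26.6% and 30.7% without the haemoglobin-rich cell). Pomp, the chaperone that matures the core, was at 264 CPM in injured against 171 CPM in uninjured cells, a ratio of 1.54 (0.931 to 2.77). Sem1, a small cap subunit, was at 366 against 229 CPM, a ratio of 1.60 (1.03 to 2.63). Adrm1, a ubiquitin receptor of the cap, was at 49.8 against 68.6 CPM (0.726; 0.327 to 2.00). Without the haemoglobin-rich cell none of these 3 genes was 1.5-fold higher or lower. Of the deubiquitinases and shuttles compared, 3 of 7 were higher (2 of 7 without the haemoglobin-rich cell) and 1 lower, each on 1 to 3 uninjured UMIs: Ubqln1 had 125 and 1 UMIs, Usp14 224 and 2, and Ubqln2 62 and 3. Of 5 compared genes of ubiquitin activation and of the unfoldase p97, 1 was higher (Nsfl1c, 173 and 2 UMIs). Vcp, which encodes p97, was at 152 against 114 CPM.

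Of the genes that encode ubiquitin itself, Ubb, a polyubiquitin gene, was at 1776 CPM in injured against 1394 CPM in uninjured cells, a ratio of 1.27 (1.07 to 1.54). Rps27a, which encodes ubiquitin fused to a ribosomal protein, was at 2659 against 2263 CPM, a ratio of 1.17 (1.02 to 1.36), or 1.03 (0.895 to 1.19) without the haemoglobin-rich cell.

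Among the regulators of proteasome genes, Nfe2l1 had 209 injured UMIs (56.5 CPM) and 1 uninjured UMI, a ratio of 4.95 (0.878 to 196). Nfe2l2 was at 200 against 274 CPM, a ratio of 0.729 (0.486 to 1.14), or 0.636 (0.424 to 0.999) without the haemoglobin-rich cell, where it was among the lower genes. Of the 8 compared genes of this list 2 were called higher, Nfe2l1 and Keap1 (77 and 0 UMIs, not detectable as a difference at this depth), and 3 lower, namely Maff and Mafk, small partners that bind DNA with NRF1 and NRF2, and Bach1, a repressor at the same motif. Mafk was at 17.8 against 68.6 CPM (0.260; 0.113 to 0.735), Maff at 46.5 against 126 CPM (0.370; 0.202 to 0.755) and Bach1 at 62.7 against 149 CPM (0.422; 0.242 to 0.805). Of the NRF2 target genes 6 of 7 compared were higher, and 5 of 7 without the haemoglobin-rich cell. Txn1 was at 315 against 114 CPM (2.76; 1.49 to 5.76) and Prdx1 at 611 against 263 CPM (2.33; 1.55 to 3.68), both antioxidant proteins. The 6 include Gclm, which helps to make glutathione and had 92 injured UMIs (24.9 CPM) and 0 uninjured UMIs, so that its difference was not detectable at this depth.

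Among the interferon regulators, Stat2, Irf1, Irf9 and Jak1 were at least 1.5-fold lower in injured cells and Ifngr2, a receptor chain for interferon gamma, was at least 1.5-fold higher. Stat2 was at 14.6 against 57.1 CPM (0.256; 0.103 to 0.819), and Irf1, known to act on the promoter that Psmb9 and Tap1 share, at 77.1 against 206 CPM (0.375; 0.233 to 0.641). Of the 9 genes of peptide loading on MHC class I, 2 passed the 1.5-fold rule: Pdia3 (578 against 263 CPM; 2.20, 1.46 to 3.47) and Tap1, whose difference was not detectable at this depth. Without the haemoglobin-rich cell Tapbp and Erap1 were called lower. Among deep cells 8 of 9 were called higher, against 53.4% of all genes there. Without that cell 4 of 9 were, against 49.9%. Among Malat1-rich cells 3 of 9 were called higher and 3 lower, against 26.4% and 44.5% of all genes there. Among Malat1-poor cells 1 of 7 compared was called higher and 2 lower, against 34.6% and 32.3%. B2m was called higher among all deep cells, with an interval above 1. It was called lower in both shallow classes, with intervals below 1. H2-D1 was at 2347 against 1611 CPM (1.46; 1.23 to 1.73). Tapbp, the bridge between Tap1 and MHC class I, was at 165 against 229 CPM (0.723; 0.464 to 1.19).

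Within the injured library the level of proteasome genes differed between classes of cells. It was 5306 CPM in Malat1-poor, 4351 CPM in deep and 2383 CPM in Malat1-rich cells. Malat1-rich cells stood 2.23-fold below Malat1-poor cells (ratio 0.449; 0.405 to 0.498), and deep cells at 0.820 (0.788 to 0.853) of them. Per cell, the quartiles were 3086 and 6826 CPM in Malat1-poor cells (median 4813), 3195 and 5028 CPM in deep cells (median 4164), and 1454 and 3341 CPM in Malat1-rich cells (median 2220). The quartile ranges of Malat1-rich and Malat1-poor cells overlapped only between 3086 and 3341 CPM. Microglia and macrophage markers took 2.27% of UMIs in Malat1-rich, 5.04% in Malat1-poor and 6.24% in deep injured cells, oligodendrocyte markers took 0.273%, 0.518% and 0.0322% in the same order, and mitochondrial genes followed the order given above; their part in these differences was not tested. In the uninjured library the same order of the shallow classes was seen, with 3854 CPM in Malat1-poor and 1757 CPM in Malat1-rich cells.

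**Figure D4:**
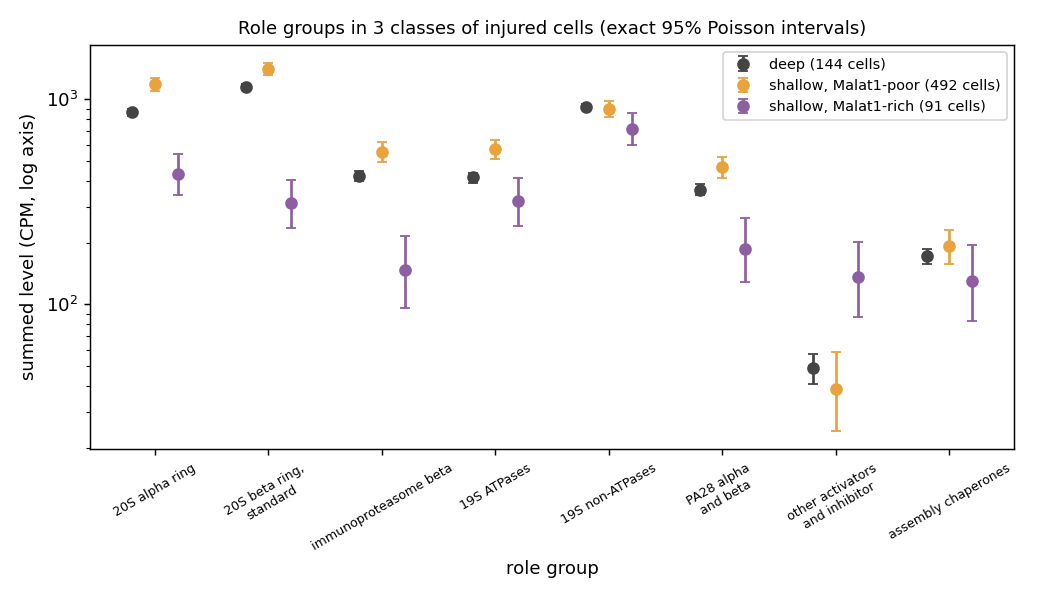
Summed level of each role group (CPM, log axis) in the deep, Malat1-poor and Malat1-rich cells of the injured library, with exact 95% Poisson intervals. The beta ring is at 1403 CPM in Malat1-poor and 312 CPM in Malat1-rich cells, the non-ATPase cap subunits lie within 721 to 919 CPM, and the other activators are highest in Malat1-rich cells.

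The gap between Malat1-rich and Malat1-poor cells was wide for the core and narrow for the cap. The standard 20S core was 3.48-fold lower in Malat1-rich cells (743 against 2586 CPM) and the 19S cap 1.42-fold lower (1038 against 1470 CPM). The 20S genes made up 41.7% (36.2 to 47.4) of 20S and 19S UMIs in Malat1-rich, 60.1% (59.1 to 61.1) in deep and 63.8% (61.8 to 65.7) in Malat1-poor injured cells. In uninjured cells the share was 48.7% (32.4 to 65.2), 50% (36.1 to 63.9) and 50.7% (38.7 to 62.6) in the same order. Of 39 proteasome genes compared, 25 were at least 1.5-fold lower in Malat1-rich cells and 1 was higher; of all 5169 genes compared, 23.9% were lower and 56.2% higher. The interval lay below 1 for 19 genes and above 1 for 1 gene (19.7% and 43.8% of all genes). All 7 standard beta genes were lower, as were 6 of 7 alpha genes, 4 of 6 ATPases and 3 of 11 other cap subunits.

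Single genes spanned a wide range in this contrast. Psma5 had 0 UMIs in Malat1-rich cells, which allows up to 17.0 CPM, against 114 CPM in Malat1-poor cells. Psmb3 was at 17.0 against 181 CPM, a ratio of 0.0940 (0.0191 to 0.283). Psmb8 was at 73.8 against 411 CPM (0.179; 0.0941 to 0.313), while its relative Psmb9 was at 45.4 against 49.2 CPM (0.922; 0.363 to 2.08). The Psmb9 share of Psmb9 and Psmb6 UMIs was accordingly 34.8% (16.4 to 57.3; 23 UMIs) in Malat1-rich and 12.4% (8.39 to 17.4) in Malat1-poor cells. Psme4 was the exception among the activators, at 119 CPM in Malat1-rich and 8.79 CPM in Malat1-poor cells, a ratio of 13.6 (4.97 to 46.0; 21 and 5 UMIs). Psmd1, Psmd2 and Psmd12 lay near equal levels, with ratios of 1.05, 1.06 and 1.31.

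Transcript length ran alongside this pattern. The standard 20S genes have short transcripts (median 1165 bases for the longest basic transcript in GENCODE vM21), the 19S genes longer ones (median 1819 bases), and Psme4 the longest of all, at 6491 bases. Across the 39 compared genes the log2 ratio of Malat1-rich over Malat1-poor cells correlated with log length (Pearson 0.67, Spearman 0.63); these points share the same cells and are not independent. Across the 5052 other genes compared the coefficients were 0.64 and 0.63, close to those of the proteasome genes. The median log2 ratio was -1.39 for the 20 shorter and -0.39 for the 19 longer proteasome genes. For injured against uninjured cells, where the core also differed more than the cap, the coefficients across 45 genes were -0.06 and -0.02, and the medians 0.76 and 0.81; across the 6524 other genes compared the coefficients were -0.20 and -0.23.

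**Figure D5:**
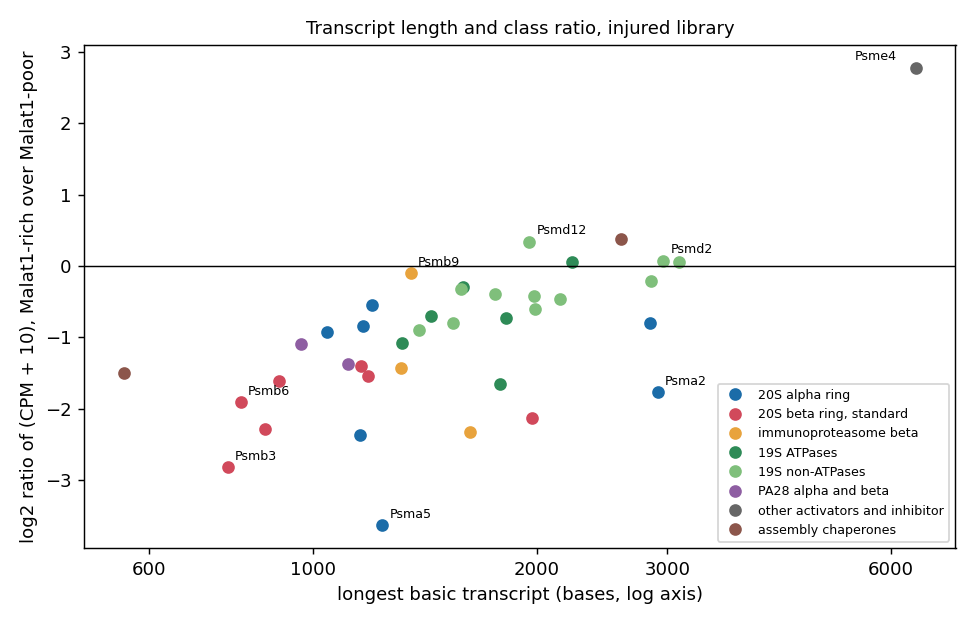
Log2 ratio of (CPM + 10) in Malat1-rich over Malat1-poor injured cells against the length of the longest basic transcript (bases, log axis) for the 39 compared proteasome genes, coloured by role group. Short beta-ring transcripts such as Psmb3 lie low, most cap transcripts lie between -1 and 0.4, and Psme4, the longest, lies highest at 2.78; Psma2 and Psma5 lie below genes of like length.

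Genes were ranked across the 144 deep injured cells by their likeness to the summed standard subunits, and to the summed immunosubunits and PA28. Likeness was Pearson's r of log2(CPM + 10) over these cells, among 2663 genes seen in at least 50% of them, with a gene taken out of the sum it belonged to. For the standard subunits r ran from 0.63 to 0.54 over the top 10, which were led by Ran, a carrier of nuclear transport, Eif4a1, a translation factor, and Psma2. For the immune sum all of the top 10 encode ribosomal proteins: Rps24, Rpl39, Rpl15, Rps3a1, Rpl14, Rps9, Rps3, Rps27a, Rpl6 and Rpl41, with r from 0.82 to 0.70. Ribosomal protein genes made up 43 of its top 50, out of 84 among the genes compared, against 0 of the top 50 for the standard sum. The summed ribosomal genes gave r = 0.72 with the immune sum, 0.34 with the standard sum and 0.51 with Psmb8 alone. The 2 sums gave r = 0.46 with each other. All these values share 1 library and its depth: log2 UMIs per cell gave r = 0.43 with the standard sum and 0.27 with the immune sum. The 144 cells were also not uniform in their markers. T cell markers had UMIs in 5 of them, at up to 5383 CPM in a cell. Microglia and macrophage markers ran from 1419 to 119944 CPM per cell (median 59318). The part of these cells in the rankings was not tested. With only the 121 cells of at least 10000 UMIs, 3 of the 10 leading genes were shared for the standard sum and 4 of 10 for the immune sum, where 8 of the top 10 were still ribosomal and the highest r was 0.65.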

How the data were processed

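Cells of digested and triturated optic nerve were captured with 10x Genomics 3′ chemistry, version v2, per the labels' protocols. The submitters' processing notes name Cell Ranger 1.3, Seurat 4.0.3 and bcl2fastq 2.17.1.14 with the build mm10, and no annotation release. Raw UMI counts of every cell, not normalized, were deposited in 1 table, whose second line names the condition. Per the series' design text, 778 macrophages and microglia with 200 to 6500 genes were kept, and the table holds 778 cells. How macrophages and microglia were selected is not stated. Clec7a was not analysed here.

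UMIs were summed per library or class of cells and scaled to CPM. Levels carry exact Poisson, shares Clopper-Pearson and ratios conditional binomial intervals at 95%. Log2 ratios used a pseudocount of 10 CPM, and genes in at least 5% of the cells of either library were compared. A call meant a 1.5-fold difference on this scale, and no test was made with 1 library per group. A gene at 0 was set against 3 counts. The 26 rows whose names a spreadsheet had turned into dates were kept in totals only. No doublet caller was run. Positions and lengths came from GENCODE vM21 (mm10). Calls and intervals were run on simulated library sums drawn from Poisson counts, the model the intervals assume. UMIs were not clustered within cells there, so that part of the spread was not tested. Alternatives changed the weights, totals, cells, thresholds and class divides. Computations used Python 3.11.15, numpy 2.4.6 and scipy 1.17.1.

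The members and lists were chosen with earlier results of these data known. Named were the catalytic pairs, activators and Psmg1 to Psmg4, in each role group the highest, the lowest and the 3 most different genes, in each partner list the 3 most different genes and 8 set regulators, and the 10 genes most like each sum; other names were chosen after their values were seen. A few genes of these lists are not reported here.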

Additional observations from a re-analysis of the deposited data

How the results depend on the processing

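No paired analysis was possible because each group was 1 library. Of 171 values recomputed under alternatives, 132 stayed within the interval of the reported value or within 1.5 times the reported count. Another 39 moved beyond it and 0 changed the direction of a called ratio. Intervals that rest on few uninjured UMIs are wide, so staying within them says little. Ratios within the 1.5-fold limits, such as that of the assembly chaperones, could not be counted as changing direction. The cause of the moves was not tested. Over all proteasome genes the ratio of injured to uninjured cells was 1.49 with each cell weighted equally, 1.47 with mitochondrial and haemoglobin genes left out of the totals, and 1.51 without the uninjured cell that was mostly haemoglobin. For the 19S non-ATPases it was 1.06 with equal weights and 1.01 with cells thinned to 500 UMIs, where the assembly chaperones gave 0.663. The immunosubunits gave 2.62 in cells under 5000 UMIs alone. The count of higher genes was 10 of 22 compared after thinning, 15 under a rule of 2-fold, and 15 of the 33 genes seen in 5% of the cells of both libraries, an alternative chosen after seeing the data. The count of lower genes, 1 as reported, was 5 with equal weights, 5 with those genes left out of the totals, 3 with ratios divided by the median ratio of all genes, 5 without the haemoglobin-rich cell, 3 without the cell with the most proteasome UMIs in each library, 5 in cells under 5000 UMIs, 2 in cells under 15000 UMIs, 6 after thinning, 3 with a pseudocount of 1 CPM, and 0 with a minimum of 10% of cells or a mean of 50 CPM. Without the haemoglobin-rich cell 5 genes had an interval above 1, in place of 11.

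Among injured cells, the Psmb8 share was 71.3% with equal weights, 71.4% in cells under 5000 UMIs, 73.1% under 15000 UMIs and 72.7% after thinning. The Psmb9 share was 14.5% in cells under 5000 UMIs and 13.6% after thinning, and the Psmb10 share 50.4% in cells under 5000 UMIs. The uninjured Psmb10 share was 100% after thinning, on few UMIs. The 20S share of 20S and 19S UMIs in injured cells was 61.7% after thinning and 56.2% without Psmb6, an alternative chosen after seeing the data. The ratio of Malat1-rich to Malat1-poor cells was 0.508 with a depth divide of 10000 UMIs, 0.516 with a Malat1 divide of 0.5% and 0.502 with mitochondrial and haemoglobin genes left out of the totals; that of deep to Malat1-rich cells was 1.59 and 1.65 under the last 2 of these. With cells of at least 10000 UMIs, also chosen after seeing the data, 3 and 4 of the 10 genes most like the standard and the immune sum were shared.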
